A study of Mus musculus with 72 samples.

Results

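The genes described here are 34 genes listed for the endoplasmic reticulum (ER) and its unfolded protein response. They include the sensors of that response, its transcription factors, the chaperones and folding enzymes that handle new secretory proteins, and the channel that admits them. The list also holds the machinery that removes proteins that fail to fold, and Cdk2ap2, a CDK2-associated protein outside these roles. All 34 were chosen by name, with earlier results of these data known. Each was read from a probe set annotated to that symbol alone. Where a gene had several, the probe set of the highest mean over the 72 arrays was taken. All 34 symbols had such a probe set, among 18820 genes measured by 21218 probe sets with 1 symbol and 35556 probe sets in all. No filter on low values was applied, so every gene entered every test.

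RNA of the hippocampus was measured in 72 adult male C57BL/6J mice, 2 months of age, with 1 array for each mouse, 2 hippocampi per animal and 9 mice in each of 8 groups. RT30, FC24, FC30, FC4 and FC12 mice received contextual fear conditioning, a single 2-s foot shock of 1.5 mA in a new chamber at Zeitgeber time (ZT, hours after lights on) 3, and were dissected 24 h (FC24), 30 min (FC30), 4 h (FC4) or 12 h (FC12) later. RT30 mice spent 5 min in the same chamber at 24 h, as a test of memory, and were dissected 30 min after it. CC30, CC4 and CC12 mice were handled for 3 days like all the others, were never trained, and were dissected at the time of day of FC30, FC4 and FC12. The 4 h groups were therefore dissected at ZT7, in the light phase, and the 12 h groups at ZT15, in the dark phase of a cycle with 12 h of light, while the other groups were dissected close to the hour of training. The groups differ by treatment and time alone, since all mice were of 1 strain, sex and age, and replicates are separate mice of 9 independent experiments. In trained mice, time of day and time after training cannot be told apart.

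Values are log2 signals, which were summarised and normalised by the authors, and their medians lay between 5.82 and 5.88 on every array. Levels below are these deposited values, given as the lowest, the median and the highest of the 9 mice of a group. Fold changes are differences of log2 values after removal of the first principal component, given with their standard error (SE), and a call means a two-sided limma p that stayed under 0.1 after adjustment across the 35556 probe sets by the method of Benjamini and Hochberg. Precision depends on the number of mice, with a median SE of 0.0545 for CC12 against CC4 and 0.0496 for FC12 against FC4. Means of the 7 pyramidal neuron markers ran from 6.64 for Spink8, at the 59.8 percentile of all probe sets, to 12.6 for Camk2a, at the 99.8 percentile. Those of the 5 dentate granule cell markers ran from 5.77 for Tdo2 (49.2 percentile) to 9.55 for Prox1 (91.3 percentile). In bulk tissue, fewer cells of a type and less RNA per cell cannot be told apart.

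Secretory and membrane proteins enter the ER through the Sec61 channel, are bound by chaperones such as BiP (encoded by Hspa5) while they fold, and are handed to a degradation route if they fail. When unfolded proteins accumulate, the sensors IRE1 (Ern1), PERK (Eif2ak3) and ATF6 (Atf6) start the unfolded protein response: IRE1 splices the Xbp1 mRNA, PERK slows translation and favours translation of Atf4, and ATF6 is cut to release a transcription factor. Many of the induced genes carry an ER stress response element (ERSE) in their promoters, which ATF6 and XBP1 recognise together with the CCAAT-binding factor NF-Y. The arrays measured the total mRNA of each gene, not the splicing of Xbp1 and not the cutting or phosphorylation of the sensors.

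Promoter sequences came from RefSeq (GRCm38.p6), 250 bases before to 50 bases after each gene's start, and were found for 28 of the 34 genes, all but Atf6, Hyou1, Hspa13, Manf, Sec61a1 and Derl1. They are shown because they were read independently of the arrays and can be set beside the calls of each gene. An ERSE was searched on both strands as CCAAT and CCACG 9 bases apart, and the shorter ERSE-II as ATTGG and CCACG 1 base apart. An ERSE contains a CCAAT box, so these searches overlap. An ERSE was found in 9 of the 28 promoters (32.1%) and in 37 of all 27025 genes with a promoter (0.137%), and an ERSE-II in 2 of the 28 (7.14%) and in 12 of all genes (0.0444%). The CCAAT box alone was in 22 of the 28 promoters (78.6%) and in 41.1% of all. The UPRE core TGACGTGG was in none of the 28 and in 0.714% of all, and the cAMP response element TGACGTCA, which shares TGACGT with it, was in that of Ppp1r15a alone (3.57%) and in 2.03% of all. These matches are a description of the letters in this window, not binding sites. The 34 genes were listed for a response whose induced genes often carry an ERSE, so the shares are not independent of how the genes were chosen.

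The sequences below are printed 5′ to 3′ on the strand of the gene, with the 2 conserved blocks of the element in capitals. The first 5 hold an ERSE and belong to genes that were higher at 12 h than at 4 h in both trained and untrained mice, Herpud1 holds an ERSE-II and did the same, and Canx holds an ERSE and was called in neither comparison.
Hspa5 (chr2:34772013-34772055, plus strand): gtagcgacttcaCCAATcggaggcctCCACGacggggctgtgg
Dnajc3 (chr14:118937815-118937857, plus strand): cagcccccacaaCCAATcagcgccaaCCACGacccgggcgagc
Creld2 (chr15:88819508-88819550, plus strand): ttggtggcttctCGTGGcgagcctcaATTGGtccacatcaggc
Pdia6 (chr12:17266479-17266521, plus strand): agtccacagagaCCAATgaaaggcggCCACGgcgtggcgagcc
Calr (chr8:84847063-84847105, minus strand): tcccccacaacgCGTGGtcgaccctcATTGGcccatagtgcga
Herpud1 (chr8:94386365-94386399, plus strand): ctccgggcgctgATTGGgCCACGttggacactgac
Canx (chr11:50325788-50325830, minus strand): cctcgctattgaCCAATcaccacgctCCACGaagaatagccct
In Creld2 and Calr the element lies on the strand opposite to the gene, so that its blocks appear as CGTGG and ATTGG. Counted in bases from the gene's start, the elements began at -65 in Hspa5, -105 in Dnajc3, -126 in Creld2, -98 in Pdia6, -162 in Calr, -52 in Herpud1 and -145 in Canx. The blocks of Canx have the letters and spacing that the search required, and its position lies between those of Calr and Creld2. Hsp90b1, Dnajb11, Syvn1 and Derl3 also held an element, were not called in CC12 against CC4 and are not printed. Whether the elements bear on the calls was not tested.

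The main contrast among these genes was between the 12 h and the 4 h groups. Since the genes were chosen with earlier results known, their counts and those of all probe sets are set side by side as a description. In untrained mice, 10 of the 34 genes were called in CC12 against CC4 and all 10 were higher at CC12, where 2.54% of all probe sets were called higher. The genes were Sdf2l1, Hspa5, Creld2, Xbp1, Manf, Pdia6, Dnajc3, Cdk2ap2, Herpud1 and Calr, with folds of 1.08 (Calr) to 1.59 (Sdf2l1), and for each of them all 9 CC12 mice lay above the CC4 mean. The median log2 fold change over the 34 genes was 0.08, against -0.00 over all probe sets, and 28 of the 34 were positive. At an unadjusted p under 0.05, 17 genes were higher and 0 lower, where 4943 of the 35556 probe sets lay under it in either direction. The deposited values of the groups did not overlap for Sdf2l1 and Dnajc3, and 0.287% of all probe sets were higher without overlap.

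In trained mice, 12 of the 34 genes were called in FC12 against FC4, again all higher, where 2.51% of all probe sets were called higher. They were the 10 genes above together with Atf4 and Syvn1, so that 100% of the calls in untrained mice were called in trained mice and 83.3% of those in trained mice were called in untrained mice. These comparisons share no mice. The median log2 fold change was 0.05, and 25 of the 34 were positive. The groups did not overlap for Xbp1, Dnajc3, Sdf2l1 and Creld2, where 0.174% of all probe sets were higher without overlap. Over all 36 mice of the 12 h and 4 h groups, with training as a covariate, 15 of the 34 genes were called higher and 1 lower, where 6.8% of all probe sets were called higher and 6.4% lower. The genes that this larger set of mice added to the 10 were Derl2, Derl3, Dnajb11 and, lower, Ssr1, beside Atf4 and Syvn1, which were also called in trained mice alone.

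**Figure D1:**
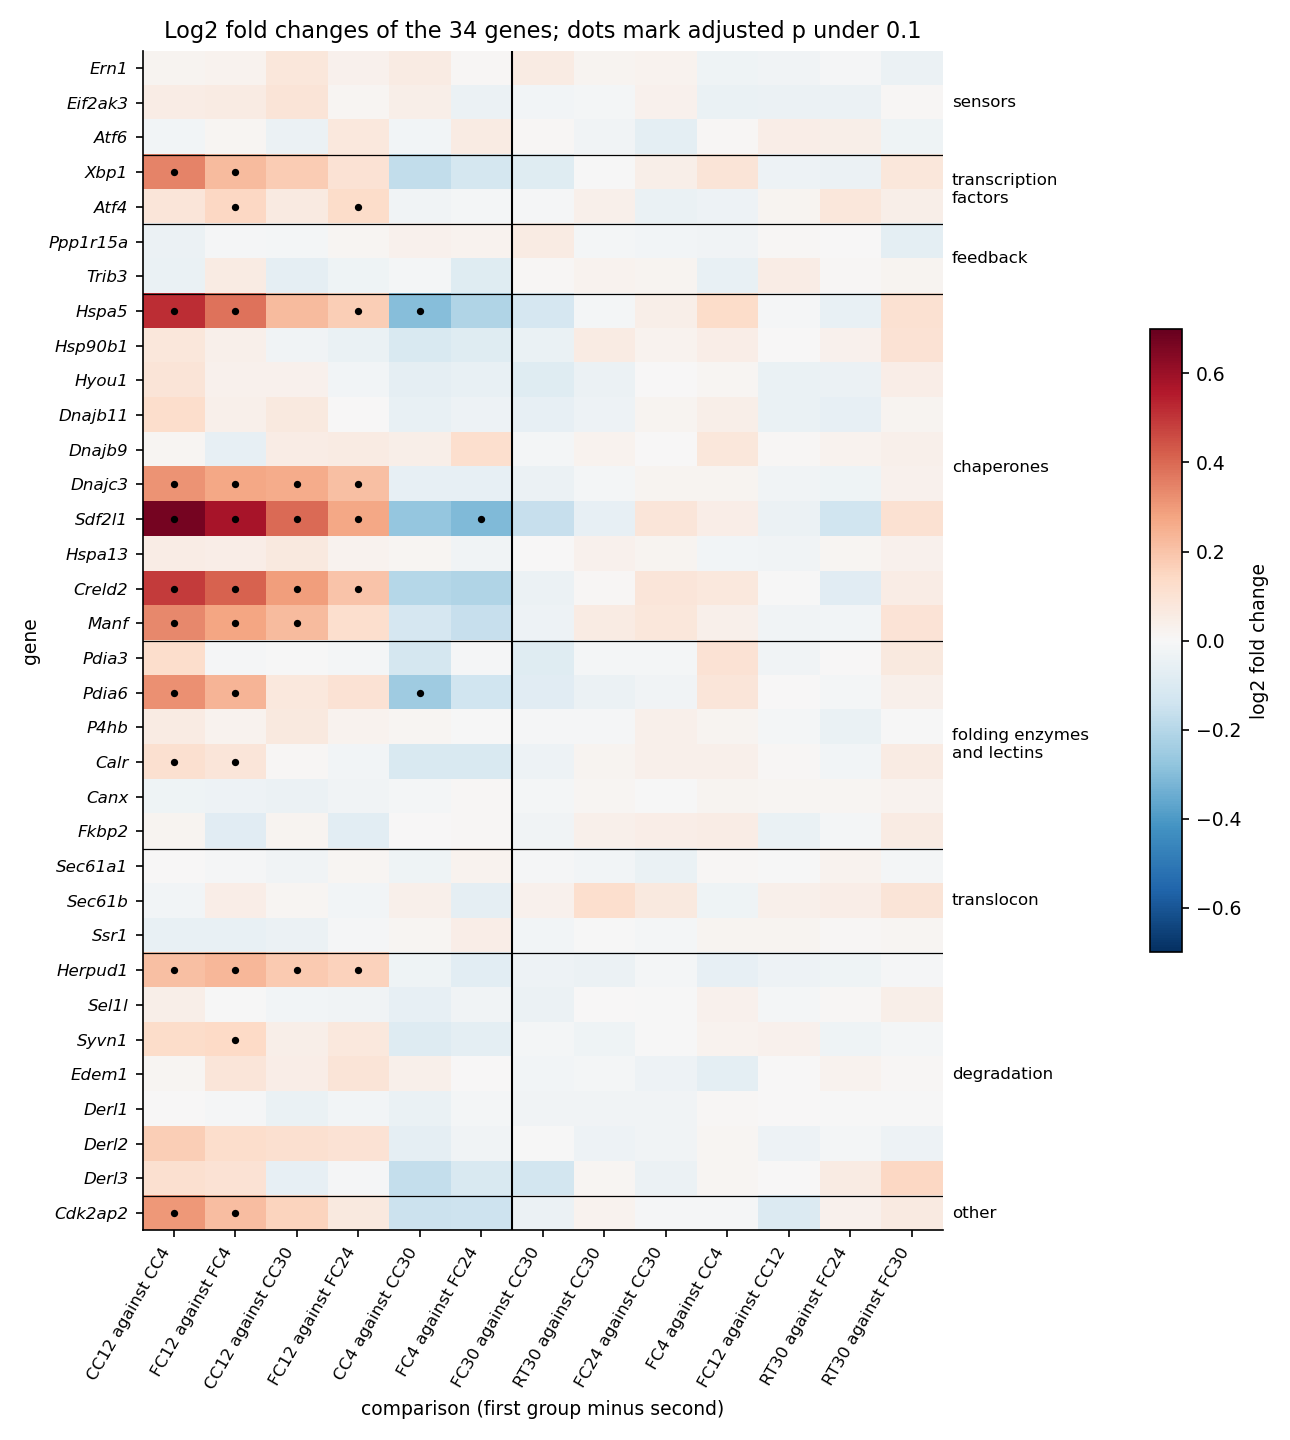
Log2 fold changes (colour) of the 34 genes, in rows by role, in 13 comparisons of 2 groups, the first minus the second, in columns; dots mark an adjusted p under 0.1, and the black line separates comparisons between times of day on the left from those of training and retrieval on the right. Dots lie only left of the line, with 10 in CC12 against CC4 and 12 in FC12 against FC4.

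The 3 sensors showed no call in any comparison. Ern1, the kinase and nuclease that splices Xbp1, had 6.97, 7.02 and 7.16 in CC12 mice, against 6.90, 7.04 and 7.15 in CC4 mice, a log2 fold change of 0.02 ± 0.03 (SE, n = 9 each, adjusted p = 0.904 by limma). Eif2ak3, the kinase of the translation factor eIF2alpha, had 7.39, 7.49 and 7.62 in CC12 mice, against 7.30, 7.49 and 7.65 in CC4 mice. Atf6, the membrane-bound transcription factor, had 8.81, 8.89 and 8.99 in CC12 mice, against 8.86, 8.92 and 9.01 in CC4 mice. The CC12 and CC4 mice overlapped almost entirely for each of the sensors. Over both trained and untrained mice, the sensors also had no call. At an unadjusted p under 0.05 (limma), 2 of the 3 were higher in CC12 against CC30, at most by 0.09, beside 4761 probe sets in either direction. In FC12 against FC24 and in FC4 against FC24 1 was higher in each, beside 4533 and 2662 probe sets, and in FC24 against CC30 1 was lower.

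Of the transcription factors, Xbp1 was higher at 12 h. Its signal was 9.61, 9.94 and 10.06 in CC12 mice, against 9.50, 9.53 and 9.70 in CC4 mice, with a log2 fold change of 0.35 ± 0.05 (SE, n = 9 each, adjusted p = 4.73e-04 by limma). A single CC12 mouse, replicate 8, lay inside the CC4 range. In trained mice Xbp1 had 9.80, 9.87 and 9.96 at FC12, against 9.56, 9.65 and 9.75 at FC4, with no overlap and a log2 fold change of 0.22 ± 0.03 (SE, n = 9 each, adjusted p = 4.36e-04 by limma). Atf4, the factor that acts downstream of PERK on genes of amino acid supply and stress, differed less. It had 7.36, 7.47 and 7.58 at FC12, against 7.20, 7.31 and 7.42 at FC4, with a log2 fold change of 0.14 ± 0.04 (SE, n = 9 each, adjusted p = 0.0381 by limma). In CC12 against CC4 its log2 fold change was 0.09 and it was not called (adjusted p = 0.235). The feedback genes of this branch were not called. Ppp1r15a, which directs the dephosphorylation of eIF2alpha, had a log2 fold change of -0.04 in CC12 against CC4, and Trib3, a pseudokinase induced by ATF4, had -0.05.

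Among the 10 chaperones and their partners, 5 were higher in CC12 than in CC4 mice and the same 5 were higher in FC12 than in FC4 mice. Sdf2l1, an ER protein that works with BiP and its J-domain partners, had the largest fold of the 34 genes. It had 8.14, 8.53 and 8.79 in CC12 mice, against 7.73, 7.88 and 8.03 in CC4 mice, with a log2 fold change of 0.67 ± 0.07 (SE, n = 9 each, adjusted p = 9.9e-06 by limma). In trained mice it had 8.23, 8.49 and 8.68 at FC12, against 7.76, 7.87 and 8.22 at FC4, with a log2 fold change of 0.58 ± 0.06 (SE, n = 9 each, adjusted p = 5.07e-05 by limma). Every CC12 mouse was above every CC4 mouse, and every FC12 mouse above every FC4 mouse, although FC4 replicate 3 came close to the lowest FC12 mouse.

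Hspa5, the gene of BiP, the main HSP70 chaperone of the ER, followed. Its signal was 10.08, 10.46 and 10.64 in CC12 mice, against 9.74, 9.91 and 10.10 in CC4 mice, with a log2 fold change of 0.52 ± 0.06, a fold of 1.43 (SE, n = 9 each, adjusted p = 7.91e-05 by limma). It was 10.28, 10.44 and 10.56 at FC12, against 9.92, 10.04 and 10.33 at FC4, with a log2 fold change of 0.38 ± 0.04, a fold of 1.30 (SE, n = 9 each, adjusted p = 1.55e-04 by limma). The overlap rested on 1 mouse in each comparison: without CC12 replicate 8 or FC4 replicate 3, all 12 h mice would lie above all 4 h mice.

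Creld2, an ER protein with disulfide isomerase activity that is a known target of ATF6, had 7.52, 7.84 and 8.06 in CC12 mice, against 7.19, 7.33 and 7.65 in CC4 mice (log2 fold change 0.49 ± 0.07, SE, n = 9 each, adjusted p = 3.91e-04 by limma). At FC12 it had 7.66, 7.83 and 7.97, against 7.29, 7.38 and 7.59 at FC4 (log2 fold change 0.41 ± 0.04, SE, n = 9 each, adjusted p = 1.02e-04 by limma). Trained mice did not overlap, and untrained mice did. Dnajc3, a J-domain protein that stimulates BiP, had 7.98, 8.13 and 8.25 in CC12 mice, against 7.70, 7.81 and 7.88 in CC4 mice (log2 fold change 0.31 ± 0.04, SE, n = 9 each, adjusted p = 8.0e-05 by limma). At FC12 it had 8.03, 8.09 and 8.17, against 7.72, 7.80 and 7.99 at FC4 (log2 fold change 0.27 ± 0.03, SE, n = 9 each, adjusted p = 3.95e-04 by limma). The groups did not overlap in either comparison. Manf, a secreted ER protein known for its trophic action on dopamine neurons, had 6.60, 6.94 and 7.05 in CC12 mice, against 6.46, 6.54 and 6.69 in CC4 mice (log2 fold change 0.34 ± 0.05, SE, n = 9 each, adjusted p = 8.61e-04 by limma). In trained mice its log2 fold change was 0.28 ± 0.05 (SE, n = 9 each, adjusted p = 0.00501 by limma).

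The other chaperones were not called in either comparison. Hsp90b1, the HSP90 of the ER, whose RefSeq promoter held 2 ERSE matches, had 9.71, 9.86 and 9.97 in CC12 mice, against 9.69, 9.74 and 9.89 in CC4 mice, with a log2 fold change of 0.08 and an adjusted p of 0.355 (limma, n = 9 each). The 2 ranges largely overlapped. Dnajb11, a J-domain partner of BiP, had a log2 fold change of 0.12 in CC12 against CC4 (adjusted p = 0.139, limma) and was called over all 36 mice, at 0.08 (adjusted p = 0.0854, limma). Hyou1, the nucleotide exchange factor of BiP, had 0.09 in CC12 against CC4, Hspa13, another HSP70 relative, had 0.05, and Dnajb9, a J-domain protein, had 0.01. All 10 chaperones were thus positive in CC12 against CC4, with a median log2 fold change of 0.22, and 9 of 10 were positive in FC12 against FC4.

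**Figure D2:**
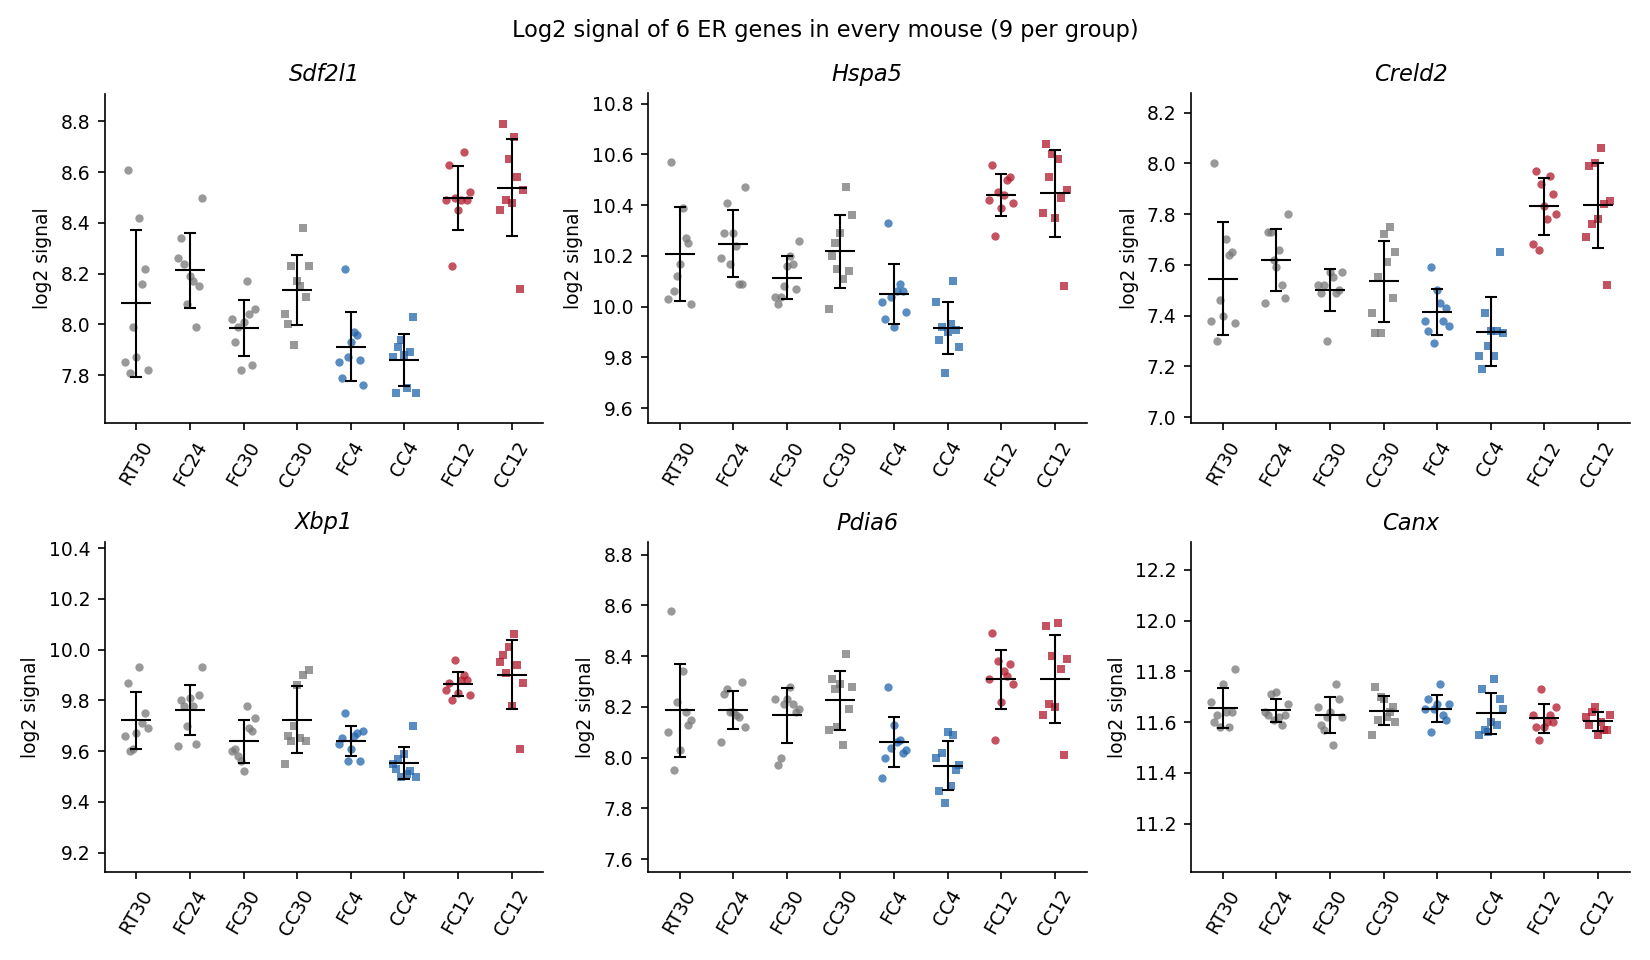
Deposited log2 signal of 6 of the genes in every mouse, with 1 point for each mouse, circles for trained and squares for untrained mice, red for the 12 h and blue for the 4 h groups; horizontal lines are means and error bars are SD (n = 9). Sdf2l1, Hspa5, Creld2, Xbp1 and Pdia6 sat higher in FC12 and CC12 than in FC4 and CC4, while Canx had medians of 11.60 to 11.65 in all 8 groups.

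Of the 6 folding enzymes and lectins, Pdia6 and Calr were called. Pdia6, a disulfide isomerase that binds BiP and IRE1, had 8.01, 8.35 and 8.53 in CC12 mice, against 7.82, 7.97 and 8.10 in CC4 mice, with a log2 fold change of 0.32 ± 0.06 (SE, n = 9 each, adjusted p = 0.00402 by limma). At FC12 it had 8.07, 8.32 and 8.49, against 7.92, 8.04 and 8.28 at FC4, with a log2 fold change of 0.24 ± 0.04 (SE, n = 9 each, adjusted p = 0.00664 by limma). Most 12 h mice were above the 4 h mice, with overlap in both comparisons. Calr, the soluble, calcium-binding lectin calreticulin, had 10.71, 10.82 and 10.90 in CC12 mice, against 10.61, 10.71 and 10.79 in CC4 mice, a smaller log2 fold change of 0.11 ± 0.03 (SE, n = 9 each, adjusted p = 0.0682 by limma). In trained mice its log2 fold change was 0.09 ± 0.02 (SE, n = 9 each, adjusted p = 0.0675 by limma). The call in untrained mice was lost when the 6 mice that stood apart on the first components were left out (adjusted p = 0.148).

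Canx, the membrane-bound lectin calnexin, which works in the same cycle as calreticulin, was not called. It had 11.55, 11.60 and 11.66 in CC12 mice, against 11.55, 11.60 and 11.77 in CC4 mice, and a log2 fold change of -0.03 over all 36 mice (adjusted p = 0.396, limma). Pdia3, the disulfide isomerase that pairs with both lectins, had a log2 fold change of 0.12 in CC12 against CC4 (adjusted p = 0.185), P4hb, the founding disulfide isomerase, had 0.06, and Fkbp2, an ER prolyl isomerase, had 0.02. The translocon genes were not called in either comparison. Sec61a1, the channel itself, had a log2 fold change of 0.00 and the smallest range of group means of the 34 genes, 0.04. Sec61b, a small channel subunit, had -0.02. Ssr1, a subunit of the translocon-associated complex, had -0.05 in both comparisons and was called lower over all 36 mice (adjusted p = 0.0268, limma).

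Among the 7 genes of ER-associated degradation, Herpud1 was called in both comparisons. Herpud1, which organises the ubiquitin ligase at the ER membrane, had 8.66, 8.86 and 8.98 in CC12 mice, against 8.48, 8.59 and 8.77 in CC4 mice, with a log2 fold change of 0.21 ± 0.05 (SE, n = 9 each, adjusted p = 0.0350 by limma). It had 8.71, 8.80 and 8.95 at FC12, against 8.47, 8.55 and 8.72 at FC4, with a log2 fold change of 0.23 ± 0.03 (SE, n = 9 each, adjusted p = 0.00115 by limma). Each of the 9 CC12 and 9 FC12 mice lay above the mean of its 4 h group, and the ranges overlapped in part. Syvn1, the ligase HRD1, had 8.21, 8.43 and 8.53 at FC12, against 8.23, 8.26 and 8.49 at FC4, with a log2 fold change of 0.14 ± 0.04 (SE, n = 9 each, adjusted p = 0.0939 by limma). In CC12 against CC4 it was 0.13 and not called (adjusted p = 0.115). FC4 replicate 3 lay among the FC12 mice. FC12 replicate 2, at 8.21, lay below every FC4 mouse, and FC12 replicate 3, at 8.28, lay among them. The call was lost without removal of a component (adjusted p = 0.159, limma).

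The derlins, membrane proteins of the exit route from the ER, differed among themselves. Derl2 had a log2 fold change of 0.17 in CC12 against CC4 (adjusted p = 0.106) and of 0.15 over all 36 mice (adjusted p = 0.00513, limma). Derl3 had 0.10 over all 36 mice (adjusted p = 0.0985, limma), and Derl1 had 0.00 in CC12 against CC4. Only Derl2 and Derl3 were therefore called over the 36 mice, and neither was called with 18. Sel1l, the adaptor of HRD1, had 0.04 in CC12 against CC4, and Edem1, which delivers misfolded glycoproteins, had 0.01.

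Cdk2ap2, which encodes a CDK2-associated protein and stands outside the folding roles, was called together with the chaperones. It had 7.58, 7.78 and 7.96 in CC12 mice, against 7.39, 7.44 and 7.63 in CC4 mice, with a log2 fold change of 0.30 ± 0.05 (SE, n = 9 each, adjusted p = 0.00128 by limma). It had 7.49, 7.72 and 7.89 at FC12, against 7.31, 7.51 and 7.57 at FC4, with a log2 fold change of 0.22 ± 0.05 (SE, n = 9 each, adjusted p = 0.0247 by limma). The ranges overlapped in each comparison by the lowest 12 h mice.

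Whether the difference between 12 h and 4 h itself differed with training was tested by an interaction term in the 36 mice. No gene of the 34 was called, where 0% of all probe sets were, with a smallest adjusted p of 0.999 (limma). At an unadjusted p under 0.05 (limma) there were 2 genes, Xbp1 at -0.13 and Pdia3 at -0.13, beside 1577 probe sets in all. Of the 10 genes called in both comparisons, 9 had a smaller log2 fold change in trained mice. These 10 are all the genes called in untrained mice, a choice that by itself favours larger values there. Of the 34 interaction terms 23 were negative, where 54.0% of all probe sets had a positive term, and the genes are not independent. For Hspa5 the term was -0.14, with an interval of 2 SE from -0.29 to 0.02, which includes 0. Over the 34 genes, the log2 fold changes of FC12 against FC4 and of CC12 against CC4 had a Pearson r of 0.95 and a Spearman rho of 0.82, as a description across genes that are not independent.

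**Figure D3:**
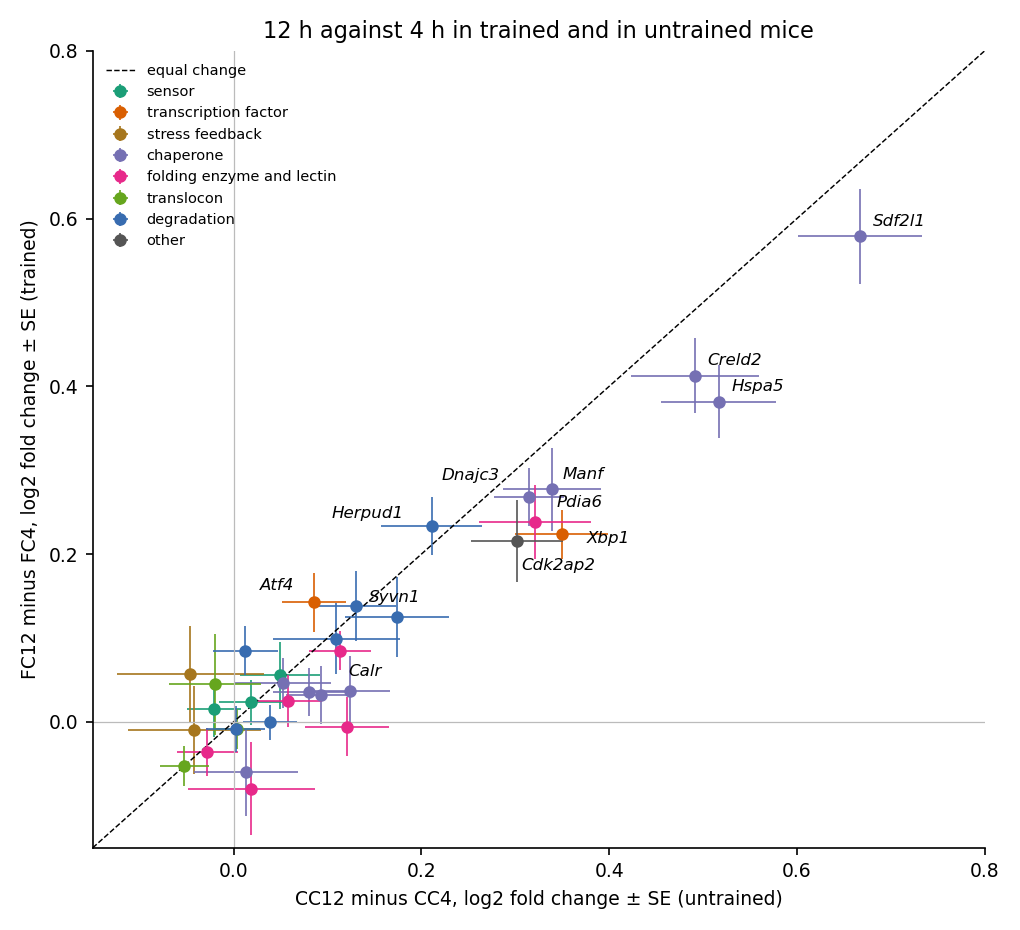
Log2 fold change ± SE of the 34 genes in FC12 against FC4 (vertical axis, trained mice) and in CC12 against CC4 (horizontal axis, untrained mice), coloured by role, with a dashed line at equal change. Sdf2l1 lies farthest out at 0.58 and 0.67, and 9 of the 10 genes called in both lie below the line. The 10 are all the genes called in untrained mice, a choice that by itself favours that side.

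The groups dissected close to the hour of training lay between the 4 h and the 12 h groups for most of the called genes. Sdf2l1 had medians of 7.99 in RT30, 8.19 in FC24, 8.01 in FC30 and 8.15 in CC30 mice. Hspa5 had medians of 10.17 in RT30, 10.24 in FC24, 10.08 in FC30 and 10.20 in CC30 mice. Creld2 had medians of 7.46 in RT30, 7.62 in FC24, 7.52 in FC30 and 7.55 in CC30 mice. For these 3 genes all 4 medians lay above those of both 4 h groups and below those of both 12 h groups. Pdia6, with medians of 8.15 in RT30, 8.18 in FC24, 8.21 in FC30 and 8.27 in CC30 mice, came closer to the 12 h groups, and CC12 did not exceed CC30 by a call (log2 fold change 0.07, adjusted p = 0.684, limma). Calr had medians of 10.79 to 10.81 in those 4 groups, and its log2 fold change of CC12 against CC30 was 0.01. The early light groups thus stood nearer to the 12 h than to the 4 h groups for Calr. Of the 10 genes called in CC12 against CC4, 9 had their highest group mean in a 12 h group and all 10 their lowest in a 4 h group. These genes were selected by that same difference, so this order largely follows from the selection. Over all 34 genes, 20 had the highest mean in a 12 h group, 20 the lowest in a 4 h group and 14 both. These counts were not made over all probe sets. The range of the 8 group means was 0.68 for Sdf2l1, 0.53 for Hspa5, 0.50 for Creld2, 0.35 for Xbp1 and 0.34 for Manf. The neighbours in the order, FC12 with CC12 and FC4 with CC4, did not differ by any call, as given below.

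In CC12 against CC30, 5 of the 34 genes were called, all higher, where 2.05% of all probe sets were. They were Dnajc3 (log2 fold change 0.26 ± 0.04, adjusted p = 0.00193), Sdf2l1 (0.39 ± 0.07, adjusted p = 0.00519), Creld2 (0.29 ± 0.07, adjusted p = 0.0395), Manf (0.22 ± 0.06, adjusted p = 0.0670) and Herpud1 (0.18 ± 0.05, adjusted p = 0.0851), each with SE, n = 9 and limma's test. Hspa5 had 0.22 and missed the threshold (adjusted p = 0.108). Without the 6 mice that stood apart, 3 of the 5 were called, and Creld2 (adjusted p = 0.110) and Manf (adjusted p = 0.160) were not. In FC12 against FC24, 6 were called, all higher, where 2.11% of all probe sets were: Dnajc3, Sdf2l1, Herpud1, Atf4, Creld2 and Hspa5, with log2 fold changes of 0.13 (Atf4) to 0.27 (Sdf2l1). Without the mice that stood apart, Creld2 and Hspa5 were not called there and 4 genes were. Dnajc3 did not overlap between FC12 and FC24 mice, with 8.03, 8.09 and 8.17 at FC12, against 7.82, 7.87 and 8.01 at FC24, where 0.194% of all probe sets were higher without overlap. Dnajc3, Sdf2l1, Creld2 and Herpud1 were called against both the 4 h and the early light groups, in trained and in untrained mice, and Dnajc3 and Sdf2l1 were so under every alternative tried.

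Some genes were lower at 4 h than in the early light phase. In CC4 against CC30, where 0.0478% of all probe sets were called lower, Hspa5 fell by 0.30 on the log2 scale and Pdia6 fell by 0.25 (each with an adjusted p of 0.0967, limma, n = 9 each). All 9 CC4 mice lay below the CC30 mean for both. In FC4 against FC24, where 0.0337% of all probe sets were called lower, Sdf2l1 was called with a log2 fold change of -0.31 (adjusted p = 0.0984, limma, n = 9 each). Hspa5 had -0.21 there and was not called (adjusted p = 0.284). These 3 calls lay close to the threshold and changed with single mice: without FC4 replicate 3 and CC4 replicate 8, the count was 1 in CC4 against CC30 (Sdf2l1) and 4 in FC4 against FC24 (Sdf2l1, Hspa5, Creld2 and Manf), and without the 6 mice that stood apart it was 0 in CC4 against CC30. CC30 shares its mice with CC12 against CC30, and FC24 with FC12 against FC24, so these comparisons are not independent of those above.

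None of the 34 genes was called after training or retrieval. In FC30 against CC30, 0 were called, where 0.256% of all probe sets were, and 4 had an unadjusted p under 0.05 by limma, all lower, beside 2405 probe sets in all. Hyou1 had the smallest adjusted p, with 8.66, 8.72 and 8.78 in FC30 mice, against 8.71, 8.81 and 8.92 in CC30 mice (log2 fold change -0.09, adjusted p = 0.573). Sdf2l1 had 7.82, 8.01 and 8.17 in FC30 mice, against 7.92, 8.15 and 8.38 in CC30 mice (log2 fold change -0.16, adjusted p = 0.608). Pdia3 had -0.09 and Derl3 -0.13. The values of the 34 genes ranged from -0.16 to 0.06, with a median of -0.02. Of these values 6 were positive, where 48.7% of all probe sets had a positive value. The genes are not independent, and this count was not tested.

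In RT30 against CC30, 0 of the 34 were called, where 0.278% of all probe sets were, and 0 had an unadjusted p under 0.05 by limma, beside 2456 probe sets in all. Sec61b had the largest difference, 0.12 (adjusted p = 0.838), on 1 of its 3 probe sets, whose log2 values differed by up to 1.67. Hspa5 had -0.01, with an interval of 2 SE from -0.16 to 0.14. In FC24 against CC30, 0 were called, where 0% of all probe sets were, and 1 had an unadjusted p under 0.05 by limma, Atf6 at -0.07, beside 1534 probe sets in all. In RT30 against FC24, which sets retrieval apart from training alone, 0 were called, where 0.152% of all probe sets were, and 1 had an unadjusted p under 0.05 by limma, beside 2204 in all. That gene was Atf4, with 7.35, 7.39 and 7.50 in RT30 mice, against 7.25, 7.34 and 7.38 in FC24 mice (log2 fold change 0.08, adjusted p = 0.553). In RT30 against FC30, 0 were called, where 0% of all probe sets were, and 0 had an unadjusted p under 0.05 by limma, beside 1386 in all. None of these memory comparisons thus placed an ER gene past the threshold.

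At 4 h, FC4 against CC4 gave 0 calls, where 0% of all probe sets were called, and 3 genes had an unadjusted p under 0.05 by limma, all higher, beside 1902 probe sets in all. Hspa5 had 9.92, 10.04 and 10.33 in FC4 mice, against 9.74, 9.91 and 10.10 in CC4 mice, a log2 fold change of 0.13 with an interval of 2 SE from 0.03 to 0.23 (adjusted p = 0.922, limma). Xbp1 had 0.09 and Pdia3 0.10. All 9 FC4 mice lay above the CC4 mean for each of these 3 genes, but the differences failed the correction. Of the 34 genes 24 had a positive value, where 44.1% of all probe sets did, and this count was not tested. At 12 h, FC12 against CC12 gave 0 calls, where 0% of all probe sets were called, and 0 genes had an unadjusted p under 0.05 by limma, beside 1442 probe sets in all. The closest were Cdk2ap2 at -0.09 and Hyou1 at -0.05, and Hspa5 had -0.01 with an interval of 2 SE from -0.12 to 0.10. That interval covers small differences in either direction.

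Mice of the same group also varied, and several of the genes varied together. The median SD within groups was 0.0917 for the 34 genes, against 0.118 for all probe sets, with Sdf2l1 highest at 0.165 and Sel1l lowest at 0.0404. Of the 10 genes called in CC12 against CC4, FC4 replicate 3 was the highest of its group in all 10, CC12 replicate 8 the lowest of its group in 9, and RT30 replicate 2 the highest of its group in 8. To measure this over all 72 mice, group means were removed and each probe set was regressed on Hspa5, with p-values adjusted over all 35555 other probe sets. Of the other 33 genes, 12 passed an adjusted p of 0.1, all positive, where 0.335% of all probe sets were positive and passed, and 9 passed with the deposited values, where 0.138% did.

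Sdf2l1 had the highest correlation with Hspa5 of all 35555 probe sets, a Pearson r of 0.82 and a Spearman rho of 0.74 over 72 mice (adjusted p = 1.98e-12), and still 0.77 without the 2 mice farthest from the median of Hspa5, RT30 replicate 2 and CC12 replicate 8. Xbp1 had an r of 0.76 and a rho of 0.71, and 0.72 without those mice (adjusted p = 2.03e-09). Creld2 (r 0.76, rho 0.71), Manf (0.75, 0.67), Pdia6 (0.73, 0.66), Calr (0.72, 0.69) and Dnajc3 (0.65, 0.58) followed, with an r of 0.61 to 0.70 without those mice. For each of these 7 genes the permutation p of r and of rho, from 100000 shuffles of mice within groups, was 1e-05, the smallest they can give. These 7 genes are all among those called at 12 h against 4 h, although the group means had been removed.

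Weaker correlations that passed were those of Sel1l (r 0.54), Hsp90b1 (0.48), Hyou1 (0.45), Derl3 (0.44) and Herpud1 (0.43). Without the 2 mice named above, r was 0.46 for Sel1l, 0.34 for Hsp90b1, 0.35 for Hyou1, 0.30 for Derl3 and 0.31 for Herpud1. With the deposited values, Hyou1 (adjusted p = 0.103), Herpud1 (adjusted p = 0.110) and Derl3 (adjusted p = 0.171) did not pass. Canx (-0.02), Ern1 (-0.05), Atf6 (0.03), Atf4 (0.03) and Trib3 (-0.10) lay within the middle 90% of all probe sets, which ran from -0.23 to 0.24. The mean of each cell type marker list had an r with Hspa5 between -0.18 (oligodendrocyte) and 0.13 (astrocyte). With the other genes, the highest r of a list ran from 0.25 (oligodendrocyte with P4hb) to 0.64 (dentate granule cell with Atf6). For the microglial list it was 0.44, with Syvn1. The correlation of Sdf2l1 with Hspa5 was positive in all 8 groups, from 0.13 in CC4 to 0.97 in RT30 mice. The other genes that passed were also positive in all 8, except Pdia6, Sel1l, Hsp90b1 and Herpud1 (7 groups) and Hyou1 and Derl3 (6 groups). Herpud1 had -0.66 in FC12 mice.

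**Figure D4:**
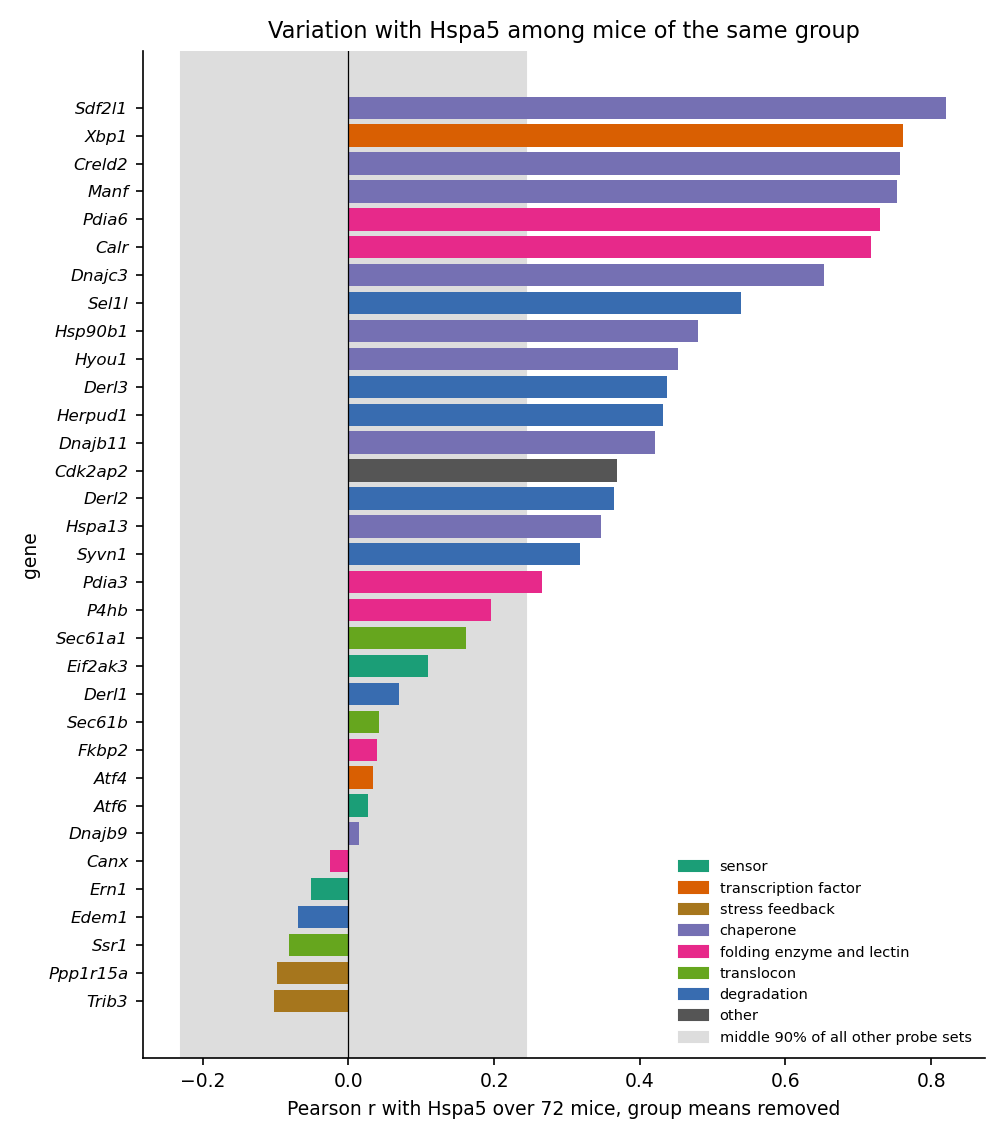
Pearson r of the log2 values of 33 genes with those of Hspa5 over 72 mice after removal of group means and of the first component (bars, coloured by role); the grey band holds the middle 90% of all other probe sets. The bars run from 0.82 for Sdf2l1 to -0.10 for Trib3, and the sensors and feedback genes lie inside the band.

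The promoter matches were set beside these calls as a description. Of the 9 genes with an ERSE, 5 were called in CC12 against CC4 (Hspa5, Dnajc3, Creld2, Pdia6 and Calr), 6 in FC12 against FC4 (with Syvn1) and 7 over all 36 mice (with Derl3), and Hsp90b1 and Canx were called in none of these. Both genes with an ERSE-II, Herpud1 and Dnajb11, were called higher over all 36 mice. Of the 17 genes with a promoter that held neither, 3 were called in CC12 against CC4 (Xbp1, Sdf2l1 and Cdk2ap2) and 5 over all 36 mice. Sdf2l1, with the largest fold of the 34, thus had neither arrangement in its RefSeq window, though it did hold a CCAAT box. Manf, called in every 12 h against 4 h comparison, had no promoter in the table.

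**Figure D5:**
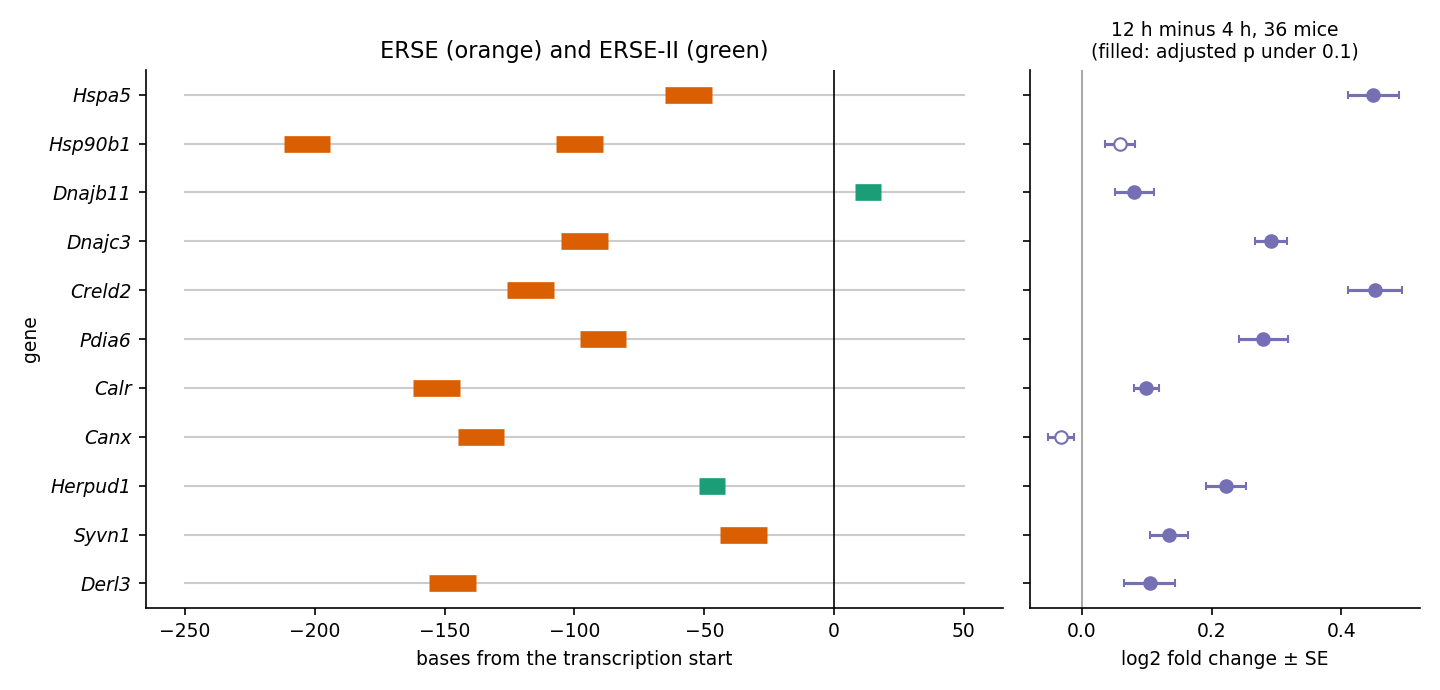
Left, position of each ERSE (orange) and ERSE-II (green) in bases from the transcription start of the 11 genes whose promoter held one; right, log2 fold change ± SE of 12 h against 4 h over 36 mice, filled where the adjusted p was under 0.1. Hspa5 and Creld2 lie farthest right at 0.45, while Hsp90b1, with 2 elements, and Canx, with 1, are unfilled.

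Of 102 further genes of these pathways, listed apart from the 34, 90 were measured. In CC12 against CC4, 7 were higher, where 2.54% of all probe sets were, and 1 was lower, where 2.47% were, with a median of 0.00. Nfya, a subunit of the CCAAT-binding factor NF-Y, had the smallest adjusted p, with a log2 fold change of 0.42 ± 0.06 (SE, n = 9 each, adjusted p = 4.73e-04 by limma). Nfe2l2, the oxidative stress factor NRF2, had 0.21 ± 0.04 (adjusted p = 0.00232, limma), Creb3l2, a membrane-bound factor related to ATF6, had 0.19 ± 0.05 (adjusted p = 0.0264, limma), and Sec61a2, the second form of the channel, had 0.10 ± 0.03 (adjusted p = 0.0461, limma). Rcn1, a calcium-binding ER protein, fell by 0.18 on the log2 scale (adjusted p = 0.0512, limma). In FC12 against FC4, 3 were higher, where 2.51% of all probe sets were, among them Nfya at 0.32 ± 0.05 (adjusted p = 0.00113, limma) and Prkcsh, the glucosidase II beta subunit, at 0.12 ± 0.03 (adjusted p = 0.0130, limma). Of the 8 subunits of the oligosaccharyltransferase, 0 were called in either comparison by limma, and 0 had an unadjusted p under 0.05.

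In CC12 against CC30, 5 of the 90 were higher, where 2.05% of all probe sets were, and 1 was lower, where 1.44% were. Among those higher were Nfe2l2 at 0.24 (adjusted p = 0.00417, limma) and Ppp1r15b, the constitutive counterpart of Ppp1r15a, at 0.18 (adjusted p = 0.0208, limma). In FC12 against FC24, 6 were higher, where 2.11% of all probe sets were, with Ube2g2, a ubiquitin-conjugating enzyme of ER degradation, at 0.16 (adjusted p = 0.0128, limma) and Nfya at 0.18 (adjusted p = 0.0143, limma). After training or retrieval a single gene of the 90 was called, where 0.256% of all probe sets were called in FC30 against CC30 and 0.278% in RT30 against CC30: Ddit4, an inhibitor of mTOR signalling that ATF4 and glucocorticoids induce, was higher in FC30 than in CC30 mice, at 0.32 ± 0.06 (adjusted p = 0.0446, limma), and higher in RT30 than in CC30 mice, at 0.33 ± 0.07 (adjusted p = 0.0473, limma). These comparisons share the CC30 mice. All 9 trained mice lay above the CC30 mean in each, while Atf4 and Trib3 were not called there.

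Of 46 measured markers of 8 cell types, 2 were called in CC12 against CC4, where 5.01% of all probe sets were called in either direction: Cx3cr1 of microglia, with a log2 fold change of -0.20 (adjusted p = 0.0176, limma), and Abcb1a of endothelial cells, with 0.21 (adjusted p = 0.0190, limma), each 1 gene of its list. The mean of the 6 microglial markers lay between 7.76 and 7.97 in CC12 mice, against 7.84 and 7.98 in CC4 mice. The mean of the 5 endothelial markers lay between 8.004 and 8.152 in CC12 mice, against 7.878 and 8.126 in CC4 mice. The 7 choroid plexus markers, which mark a secretory tissue that borders the hippocampus, had 0 calls by limma and 0 genes at an unadjusted p under 0.05, and their mean ranged from 5.46 to 7.45 in CC12 mice, against 5.43 to 7.04 in CC4 mice. In FC12 against FC4, 5 markers were called: Aqp4 and Pecam1 lower, and Slco1a4, Prox1 and Neurod1 higher, where 4.22% of all probe sets were called in either direction. All 6 astrocyte markers and all 6 meningeal fibroblast markers had negative log2 fold changes there, and of these 12 Aqp4 alone was called. Over all 36 mice, 10 of the 46 were called, where 13.2% of all probe sets were in either direction: 3 of dentate granule cells, 3 of endothelial cells, 2 of astrocytes, 1 of pyramidal neurons and 1 of microglia. The part of these markers in the differences of the 34 genes was not tested.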

How the data were processed

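Hippocampal RNA of 72 mice was hybridised to whole-transcript arrays, 1 array per mouse. The authors deposited log2 values, made with RMA (background correction, quantile normalisation and a summary per probe set), and 0 values were missing over 35556 probe sets. They were used as deposited, 0 columns of single samples were left unused, and probe sets were named from the annotation of the array. Groups were taken from the sample labels. The 34 genes, the lists of other pathway genes and the cell type markers were chosen with earlier results of these data known.

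As in the methods of the study, the first principal component of the values centred per probe set was subtracted, and each of 13 pairs of groups was fitted on the 18 arrays it concerns (limma 3.58.1, R 4.3.3; two-sided, Benjamini-Hochberg over all probe sets, called at an adjusted p under 0.1). The 36 mice of the 4 h and 12 h groups were also fitted together, with training as a covariate or with an interaction. Local false discovery rates, which the study used, were not run. Python 3.11.15 (numpy 2.4.6, scipy 1.17.1, pandas 2.3.3) was used for the regression on Hspa5, which left 63 residual degrees of freedom. Its p-values were adjusted over all probe sets rather than over the 34 genes as first planned. Figures were drawn with matplotlib 3.10.9. The fits were tested on simulated data.

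Genes called in CC12 against CC4 or FC12 against FC4 were described by group, up to 3 others per training comparison were taken by adjusted p, and of the other pathway genes the 5 of the smallest adjusted p in CC12 against CC4 and up to 2 in each other comparison were named. Dnajc3 had 2 probe sets with identical values, and Sec61b had 3, which differed by up to 1.67 on the log2 scale, and the one of the highest mean was used. The results were recomputed in 10 refits, and those of Dnajc3 and Sec61b also on their other probe sets, and 2 more refits, which left out mice noticed in these data, were added after seeing the data, 12 refits in all. The methods' equal variance test and the replicate number as a block were among the first 10. The 6 mice called standing apart, by the first 2 components, were CC30 replicate 3, FC30 replicate 4, CC12 replicate 2, FC12 replicate 2, FC24 replicate 4 and CC4 replicate 8.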

Additional observations from a re-analysis of the deposited data

Results flagged for a closer look

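Of 96 combinations of 12 genes and 8 groups, 9 held a mouse whose value lay far from the others of its group by Dixon's criterion for 9 values, which chance meets in about 1 of 20 groups. FC4 replicate 3 was highest of its group for Hspa5 at 10.33 (nearest mouse 10.09), Sdf2l1 at 8.22 (nearest 7.97), Manf at 6.84 (nearest 6.64) and Syvn1 at 8.49 (nearest 8.3). CC4 replicate 8 was highest of its group for Xbp1 at 9.7 (nearest 9.59) and Creld2 at 7.65 (nearest 7.41). FC30 replicate 4 was lowest of its group for Creld2 at 7.3 (nearest 7.49) and Syvn1 at 8.05 (nearest 8.29). FC24 replicate 9 was highest of its group for Syvn1 at 8.43 (nearest 8.37). Without FC4 replicate 3 and CC4 replicate 8, 13 of the 34 genes were called in CC12 against CC4 and 14 in FC12 against FC4.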

How the results depend on the processing

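The counts of called genes ranged from 9 to 15 in CC12 against CC4, from 9 to 14 in FC12 against FC4 and from 16 to 18 over both, and stayed at 0 in all 7 comparisons of training and retrieval and for the interaction, over the 12 alternative fits. Of the genes called, 9 of 10 in CC12 against CC4 and 9 of 12 in FC12 against FC4 were called under every one of these, the exceptions being Calr in both and Atf4 and Syvn1 in trained mice. No fold change of a called gene changed direction. With all 8 groups in one fit, CC12 against CC30 gave 8 calls instead of 5, and without the 6 mice that stood apart it gave 3. CC4 against CC30, with 2 calls, gave 1 with no component removed, 0 with the methods' t-test, 0 without the mice that stood apart and 1 without FC4 replicate 3 and CC4 replicate 8. FC4 against FC24, with 1 call, gave 0 with no component, 0 with the first 2 components removed, 0 with a component from residuals within groups, 0 with the methods' t-test, 2 with only probe sets of 1 gene symbol and 4 without FC4 replicate 3 and CC4 replicate 8. The cause was not tested. Leaving out CC12 replicate 8 and RT30 replicate 2 gave 12 calls in CC12 against CC4 and 7 in CC12 against CC30. The regression on Hspa5 gave 12 genes, and 9 with no component removed.

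With the replicate number as a block, the counts were 9 in CC12 against CC4, 9 in FC12 against FC4, 16 over both, 4 in CC12 against CC30, 0 in CC4 against CC30, 2 in FC12 against FC24 instead of 6, and 0 in FC4 against FC24. Correlations of same-numbered mice ran from -0.16 to 0.38 per pair, and at most 4 of 9 mice correlated best with their own number. Those 4 were in FC4 against CC4, where the median was 0.09 for the same number and -0.01 for other numbers. In RT30 against FC24 the medians were 0.08 and -0.02, with 3 of 9. The same-number median was the lower one in CC12 against CC30, FC4 against FC24, FC24 against CC30 and RT30 against FC30. Whether a shared number marks a shared experiment was not tested, and the main fits did not pair the mice. With 9 arrays per group, a call needed a difference of several SE, where 1 SE was about 0.05 for a typical probe set. Larger differences also missed the threshold, such as those of Derl2 in CC12 against CC4 and Hspa5 in CC12 against CC30. The absence of a call after training or retrieval therefore does not exclude differences of such a size.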
